A study of Mus musculus with 12 samples.

Results

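Polycomb proteins work in 2 complexes, and the 10 genes described here encode subunits of both. Ezh1, Ezh2, Eed and Suz12 encode the core of Polycomb repressive complex 2 (PRC2), Jarid2, Mtf2 and Phf19 encode accessory subunits of PRC2, and Rnf2, Ring1 and Bmi1 encode subunits of Polycomb repressive complex 1 (PRC1). They were taken by name from a table of 26061 genes, and all 10 passed the filter on low values, as did 14185 genes in all. The libraries came from mouse embryonic stem cells (ESCs).

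PRC2 places methyl groups on lysine 27 of histone H3, and PRC1 attaches ubiquitin to histone H2A. Both marks lie on CpG-rich promoters of developmental genes, which pluripotent cells keep at low levels. The core of PRC2 is joined either by a Polycomb-like protein (Phf1, Mtf2 or Phf19), which binds DNA and carries a Tudor domain that reads histone methylation, or by Jarid2 with Aebp2, and these partners guide where the complex binds.

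All cells were Tet2 KO ESCs that carried a PiggyBac rescue construct, either wildtype (WT) TET2 or a catalytic mutant with the changes H1304Y and D1306A. Each line was cultured in 2i with LIF, which inhibits the MEK and GSK3 kinases (naïve), or in serum with LIF (primed). All 12 libraries were also depleted of SETDB1, an H3K9 methyltransferase, by a lentiviral shRNA, so that every value below was measured in SETDB1-depleted cells and no library with a control shRNA was analysed here. There were 3 replicates in each of 4 groups, and no label says whether they were separate cultures, so that the p-values measure the spread between these libraries. Each genotype is represented by its stable line, and the Tet2 transcripts include those of the construct.

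Between 8066662 and 21335933 reads were assigned to genes per library. Expression is given as the deposited log2 value after a variance-stabilising transformation, whose lowest value (a count of 0) is 3.81. Levels of different genes are compared as RPKM (reads per kb of exon per 1000000 reads on genes). Log2 values of paralogs are also subtracted from each other, to compare the media and not the levels. Setdb1 was read 114 to 585 times per library and its mean lay between 7.69 and 8.27 in the 4 groups, with no unsilenced library to compare. Tet2 lay at 13.27 ± 0.65 and 14.83 ± 0.26 with WT TET2 and at 11.12 ± 0.72 and 12.99 ± 0.43 with mutant TET2 in naïve and primed ESCs (SD, n = 3 each). The pluripotency markers Pou5f1, Sox2, Nanog and Zfp42 summed to between 2625 and 3681 RPM (reads per 1000000 reads on genes) in every library. Of these, Zfp42 was lower in naïve ESCs in both lines (-0.94 and -1.29 log2 units, limma, adjusted p = 0.0105 and 0.00129) and Nanog was higher with WT TET2 (0.57, adjusted p = 0.0357). Of the markers of primed medium, 5 of 5 tested (Dnmt3a, Dnmt3b, Dnmt3l, Otx2 and Pou3f1) were lower in naïve ESCs in both lines and Fgf5 was at 0 there, and of 6 markers of naïve medium 2 were higher in both lines (Tfcp2l1 and Prdm14). The mutant primed replicate 3 stood farthest from its group, with an SD of gene differences from the other replicates of 0.46 against 0.23 to 0.41 in the other libraries. It was the highest mutant primed library for 7 of the 10 subunits (Ezh2, Eed, Suz12, Jarid2, Mtf2, Rnf2 and Bmi1) and the lowest for Phf19 and Ring1. Without it no call of a subunit changed in any comparison, and differences between media or between lines that moved by over 1.5 times or changed sign are given below.

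Between the media, 2 subunits moved in both rescue lines, and both were PRC2 accessory subunits that were lower in naïve ESCs. Relative to primed ESCs, Phf19 fell by 4.06 log2 units with WT TET2 and fell by 3.41 with mutant TET2, and Jarid2 fell by 1.36 and fell by 1.37. The other subunits differed by at most 0.68 in either line. With WT TET2 4 of 10 subunits were called (limma, Benjamini-Hochberg adjusted p under 0.05 over all tested genes), where 35.9% of all tested genes were. Of these, Rnf2 and Ezh1 were higher in naïve ESCs (18.6% of all genes) and Phf19 and Jarid2 were lower (17.3%). With mutant TET2 3 of 10 were called, all lower (Phf19, Jarid2 and Eed), against 35.2% of all genes in either direction, 18.3% higher and 16.9% lower. The number of subunits called thus lay near that of all genes. By the mean of the 2 differences, Phf19 was the 10th lowest of 14185 genes on this scale, which compresses low counts, and Jarid2 the 346th. Called lower in both lines were 2 of 10 subunits and 12.4% of all genes, and called higher in both were 0 of 10 and 13.7%.

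**Figure D1:**
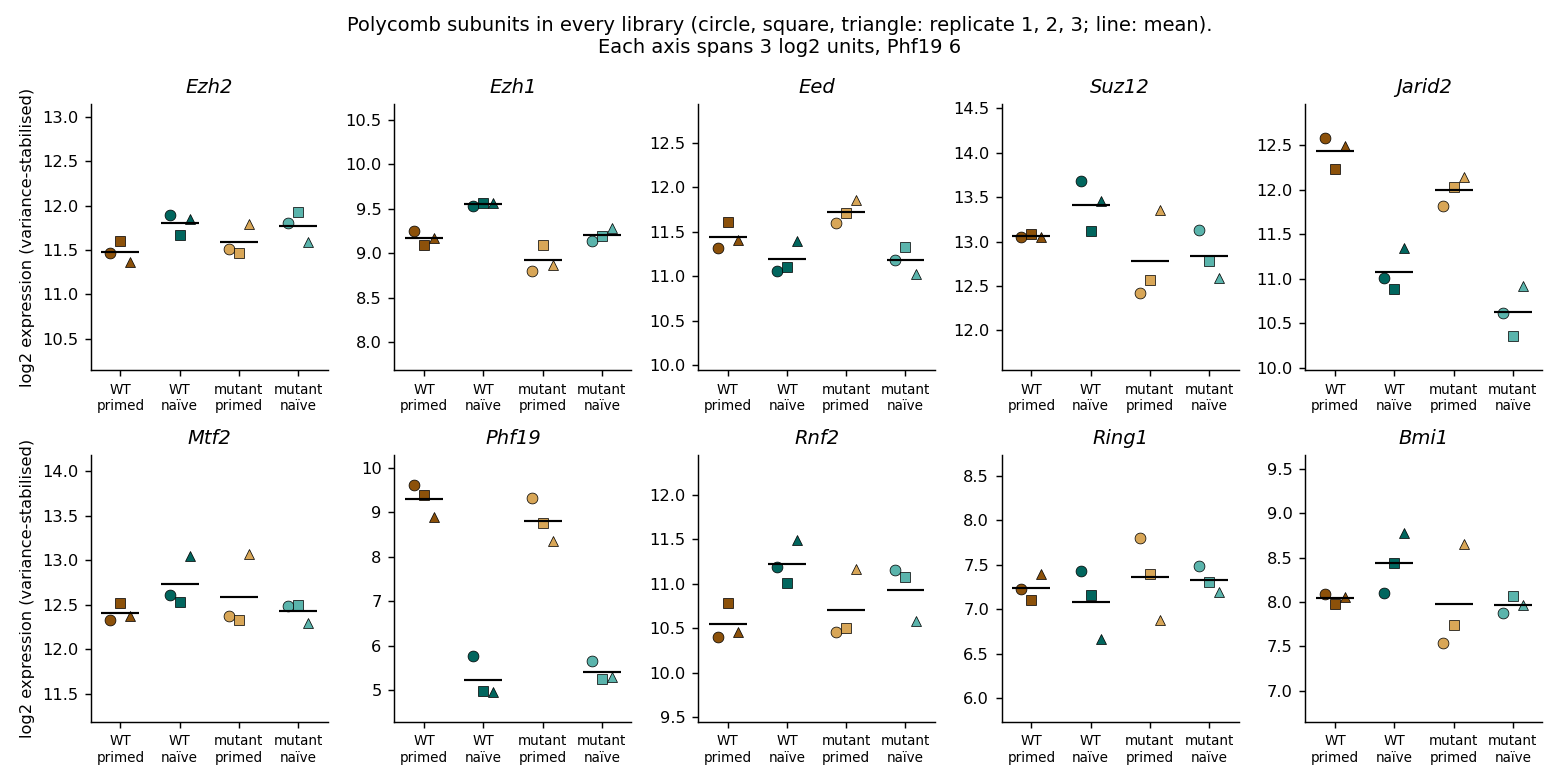
Log2 expression of each subunit (vertical axis, variance-stabilised) in all 12 libraries, by rescue line and medium, with the replicate shown by the symbol and the group mean as a line. Phf19 lies at 4.95 to 5.78 in the naïve libraries and at 8.35 to 9.62 in the primed libraries, and only Phf19, Jarid2 and Ezh1 separate the media without overlap in both lines.

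**Figure D2:**
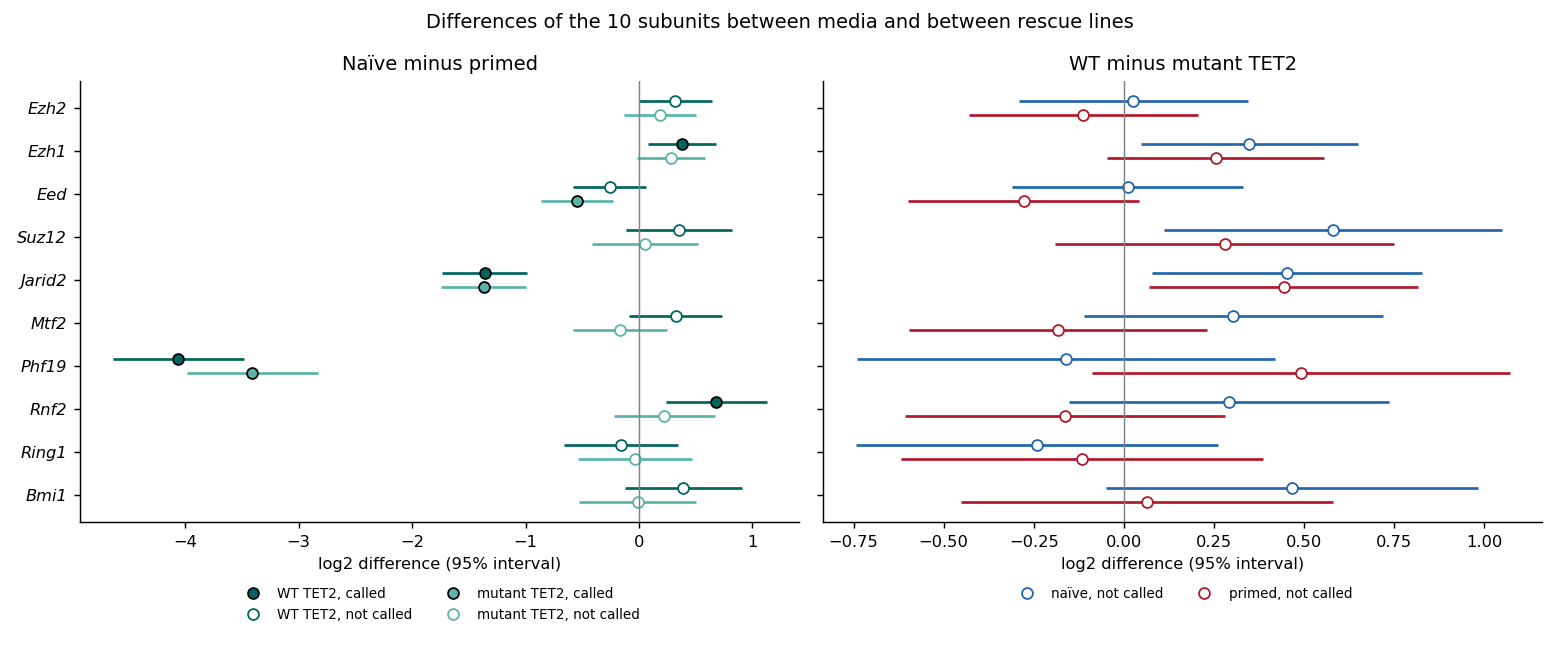
Log2 differences with 95% intervals (horizontal axis) for the 10 subunits, between media in each rescue line on the left and between rescue lines in each medium on the right. Filled points passed an adjusted p of 0.05, which Phf19 and Jarid2 did in both lines on the left and no subunit did on the right.

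Among the core subunits of PRC2, the catalytic subunit Ezh2 (mm9, chr6:47480273-47545340, minus strand) was at 11.47, 11.60 and 11.36 in the primed libraries with WT TET2 and at 11.89, 11.67 and 11.85 in the naïve ones. In the mutant line it was at 11.51, 11.47 and 11.80 in primed and 11.80, 11.93 and 11.59 in naïve ESCs. The naïve libraries lay above the primed ones without overlap with WT TET2 and overlapped them with mutant TET2. The differences of 0.32 (95% interval 0.0038 to 0.64, limma, adjusted p = 0.106) and 0.18 (95% interval -0.14 to 0.50, adjusted p = 0.368) did not pass the test. The mutant media did not overlap either without the mutant primed replicate 3, at a difference of 0.29 (adjusted p = 0.153). Gm17629, an annotated transcript on the opposite strand, shares 174 exon bases with Ezh2, and the libraries kept no strand.

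Ezh1, the paralog of Ezh2 with weaker methyltransferase activity (chr11:101052429-101087777, minus strand), was at 9.25, 9.09 and 9.17 in primed and at 9.53, 9.57 and 9.56 in naïve ESCs with WT TET2. With mutant TET2 it was at 8.80, 9.09 and 8.86 in primed and 9.13, 9.19 and 9.28 in naïve ESCs. Every naïve library lay above every primed library of its line. The difference of 0.38 (SE 0.14, limma, adjusted p = 0.0464) was called with WT TET2, and that of 0.29 (95% interval -0.014 to 0.59, adjusted p = 0.129) was not with mutant TET2. The call stood near the threshold and was lost in 13 of 20 other settings, the replicate block among them (adjusted p = 0.102, with a highest value of 0.125 over all settings).

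Eed, whose product binds methylated histone H3 and so holds PRC2 on its own mark (chr7:97103166-97129493, minus strand), was at 11.32, 11.61 and 11.41 in primed and 11.06, 11.11 and 11.40 in naïve ESCs with WT TET2. The mutant line had values of 11.60, 11.72 and 11.86 in primed and 11.18, 11.33 and 11.03 in naïve ESCs. The media overlapped with WT TET2 and did not with mutant TET2. In naïve ESCs Eed fell by 0.54 with mutant TET2 (SE 0.15, limma, adjusted p = 0.0107), a call made in 21 of 21 settings (adjusted p between 0.00822 and 0.0395). With WT TET2 the difference was -0.26 (95% interval -0.58 to 0.064, adjusted p = 0.198), and the 2 lines were not shown to differ, with an interaction of 0.29 (95% interval -0.17 to 0.74, adjusted p = 0.976).

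Suz12, a scaffold subunit needed for the stability of the complex (chr11:79806608-79847625, plus strand), was at 13.05, 13.09 and 13.05 in primed and 13.68, 13.11 and 13.46 in naïve ESCs with WT TET2. With mutant TET2 the values were 12.43, 12.57 and 13.35 in primed and 13.13, 12.78 and 12.59 in naïve ESCs. The WT media did not overlap, while the mutant primed libraries, with replicate 3 highest, enclosed the naïve ones. Neither difference was called, at 0.35 with WT TET2 (95% interval -0.12 to 0.82, limma, adjusted p = 0.226) and 0.053 with mutant TET2 (95% interval -0.42 to 0.52, adjusted p = 0.876). The latter was 0.34 (adjusted p = 0.179), with no overlap, when the mutant primed replicate 3 was left out. Gm16706 on the opposite strand shares 178 exon bases with Suz12.

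The accessory subunits held the large differences. Phf19 encodes a Polycomb-like protein whose Tudor domain binds trimethylated lysine 36 of histone H3 (chr2:34749277-34769546, minus strand). Its promoter is shown beside that of Jarid2, the other subunit that fell in both lines, and those of Ezh2 and Suz12, which were called in neither line and hold the same motif as Phf19. The sequences are from RefSeq (GRCm38.p6, from 250 bases before to 50 after the gene's start, 5′ to 3′ on the gene's strand), and capitals mark matches to 5 motifs. The Phf19 promoter is at chr2:34913927-34914226 (minus strand), Jarid2 at chr13:44730524-44730823 (plus strand, the first of its 2 listed), Ezh2 at chr6:47594981-47595280 (minus strand) and Suz12 at chr11:79992856-79993155 (plus strand).
Phf19: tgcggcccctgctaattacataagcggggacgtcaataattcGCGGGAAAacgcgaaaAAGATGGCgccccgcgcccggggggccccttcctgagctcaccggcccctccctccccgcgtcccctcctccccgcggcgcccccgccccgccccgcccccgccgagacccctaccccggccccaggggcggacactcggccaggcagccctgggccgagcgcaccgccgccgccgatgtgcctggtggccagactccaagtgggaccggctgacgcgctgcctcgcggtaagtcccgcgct
Jarid2: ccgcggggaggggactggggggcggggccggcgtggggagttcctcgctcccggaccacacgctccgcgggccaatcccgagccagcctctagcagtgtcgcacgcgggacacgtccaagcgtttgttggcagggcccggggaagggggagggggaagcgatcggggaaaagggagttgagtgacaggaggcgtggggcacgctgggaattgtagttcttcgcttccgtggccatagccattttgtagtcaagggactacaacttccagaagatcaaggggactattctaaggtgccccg
Ezh2: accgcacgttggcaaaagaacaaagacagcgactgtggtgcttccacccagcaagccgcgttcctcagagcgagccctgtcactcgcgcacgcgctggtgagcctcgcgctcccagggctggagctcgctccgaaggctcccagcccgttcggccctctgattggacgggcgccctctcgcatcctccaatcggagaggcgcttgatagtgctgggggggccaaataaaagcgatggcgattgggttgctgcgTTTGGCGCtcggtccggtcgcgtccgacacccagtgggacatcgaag
Suz12: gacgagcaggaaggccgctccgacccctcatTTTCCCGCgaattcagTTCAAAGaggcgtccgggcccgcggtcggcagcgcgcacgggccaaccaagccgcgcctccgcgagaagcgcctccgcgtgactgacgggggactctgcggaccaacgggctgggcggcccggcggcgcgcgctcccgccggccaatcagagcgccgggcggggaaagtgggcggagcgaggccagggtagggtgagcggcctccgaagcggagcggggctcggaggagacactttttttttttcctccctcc

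The motifs searched on both strands were E2F (TTTCCCGC or TTTGGCGC), ETS (CCGGAAG), TCF/LEF (CTTTGAA or CTTTGAT), YY1 (AAGATGGC) and E-box (CACGTG). E2F letters stood in the promoters of 3 of 10 subunits, at positions -208 to -201 from the start in Phf19, -219 to -212 in Suz12 and 4 to 11 in Ezh2, and in 1.56% of 32851 promoters. All E2F letters hold CG dinucleotides, and the first promoters of the 10 subunits held 17 to 41 of these against a median of 7 over all promoters, so that the 2 shares do not compare like with like. YY1 letters stood in Phf19 (2.75% of all promoters), TCF/LEF letters in Suz12 (8.65%) and an E-box in Bmi1 (7.15%). ETS letters (8.86%) were in no promoter of the 10 subunits. No 2 matches overlapped, and the Jarid2 promoter held none of the 5 motifs. The matches are letters in a window and were not tested as binding sites.

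Phf19 was at 9.62, 9.38 and 8.89 in the primed libraries with WT TET2 and at 5.78, 4.98 and 4.95 in the naïve ones. In the mutant line it was at 9.31, 8.76 and 8.35 in primed and at 5.65, 5.25 and 5.29 in naïve ESCs. Every primed library exceeded every naïve library by more than 2 log2 units, and all 6 naïve libraries lay within 2 units of the lowest value of the table. In reads this was 517 to 844 in primed and 9 to 26 in naïve ESCs with WT TET2, and 281 to 441 and 14 to 31 with mutant TET2, so that counting error weighs on the naïve values. The log2 difference was -4.06 with WT TET2 (SE 0.27, limma, adjusted p = 2.95e-08) and -3.41 with mutant TET2 (SE 0.27, adjusted p = 2.04e-07). On recovered counts, where the transformation does not compress low values, Phf19 was 41.3-fold lower in naïve ESCs with WT TET2 (95% interval 20.0 to 85.2) and 22.0-fold lower with mutant TET2 (95% interval 11.7 to 41.4). The 2 lines were not shown to differ in this response (interaction -0.65, 95% interval -1.47 to 0.17, limma, adjusted p = 0.976), and the interaction was -0.42 without the mutant primed replicate 3.

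Jarid2, which recruits PRC2 and also binds ubiquitinated histone H2A (chr13:44824843-45017012, plus strand), was at 12.59, 12.24 and 12.49 in primed and 11.01, 10.89 and 11.35 in naïve ESCs with WT TET2. With mutant TET2 it was at 11.82, 12.03 and 12.14 in primed and 10.62, 10.35 and 10.91 in naïve ESCs. All primed libraries lay above all naïve libraries across both lines. In naïve ESCs Jarid2 fell by 1.36 (SE 0.18, limma, adjusted p = 2.34e-05) with WT TET2 and fell by 1.37 (SE 0.18, adjusted p = 2.31e-05) with mutant TET2. On recovered counts it was 2.59-fold lower (95% interval 1.99 to 3.35) and 2.61-fold lower (95% interval 2.00 to 3.39). Its interaction of 0.0092 had a 95% interval of -0.52 to 0.54 (adjusted p = 1.00).

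The summed level of 6 trophoblast markers moved the same way as Phf19 and Jarid2, at 16.9 to 38.7 RPM in primed and 3.75 to 7.87 in naïve libraries. Elf5 was at 0 in all naïve libraries, Hand1 in those with WT TET2 and Cdx2 in those with mutant TET2. Krt8 (-2.30 and -1.52, limma, adjusted p = 3.19e-06 and 2.05e-04) and Eomes were called lower in both lines. Krt7 (5 to 37 reads) was called lower with WT TET2 (-0.87, adjusted p = 0.0105) and was not called with mutant TET2 (0.52, adjusted p = 0.106). Primitive endoderm markers (6) summed to 4.79 to 8.80 in primed and 3.33 to 6.84 in naïve libraries. Sox7 was unread in the naïve libraries of the WT line. Dab2 was called lower in both lines (-1.47 and -0.85, limma, adjusted p = 2.28e-04 and 0.0127), but passed the filter only through the primed libraries. Gata4 (0.19 and -0.15, adjusted p = 0.476 and 0.572) and Sox17 (-0.048 and 0.15, adjusted p = 0.897 and 0.660) were not called. Sox7, Gata6 and Pdgfra did not pass the filter. Pdgfra was at 4.96 and 4.71 in naïve and 4.89 and 4.42 in primed ESCs (WT and mutant TET2). The sum of the fibroblast markers (5) moved the other way, at 5.58 to 7.75 RPM in naïve and 2.48 to 4.90 in primed libraries. Of these Thy1 was called higher in naïve ESCs in both lines (0.85 and 1.40, limma, adjusted p = 0.00474 and 9.34e-05). Lum (4 to 52 reads) was not called with WT TET2 (0.32, adjusted p = 0.403) and was called lower with mutant TET2 (-0.95, adjusted p = 0.0161). Col1a1 had 1 to 10 reads, and the collagen gene Col1a2 and Postn were at 0 in all libraries. The part of these cells in the results was not tested. In bulk samples a smaller share of cells that express a gene and less RNA of it per cell cannot be told apart.

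Mtf2, the Polycomb-like gene with the highest transcript level per length of the 3 (chr5:108494693-108538023, plus strand), was at 12.32, 12.52 and 12.37 in primed and 12.61, 12.53 and 13.04 in naïve ESCs with WT TET2. The mutant line had values of 12.37, 12.32 and 13.07 in primed and 12.49, 12.50 and 12.29 in naïve ESCs. The naïve libraries lay above the primed ones by a narrow margin with WT TET2, and replicate 3 of the mutant primed group was the highest of all 12 libraries. The differences of 0.32 (95% interval -0.091 to 0.74, limma, adjusted p = 0.210) and -0.16 (95% interval -0.58 to 0.25, adjusted p = 0.546) were not called. Without that library the second was 0.077 (adjusted p = 0.751). Tmed5 on the opposite strand shares 395 exon bases with Mtf2.

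Set beside each other per length, the Polycomb-like proteins were unequal in both media. Mtf2 was at 80.9 to 138 RPKM in every library and Phf1 at 0.883 to 1.90 RPKM. Phf19 lay between them in primed ESCs, at 10.4 ± 2.45 RPKM with WT and 7.19 ± 2.39 RPKM with mutant TET2, and below both in naïve ESCs, at 0.274 ± 0.206 and 0.318 ± 0.0978 RPKM (SD, n = 3 each). Of the RPKM summed over the 3 genes, Phf19 took 10.5% ± 2.68 and 7.23% ± 3.60 in primed ESCs and 0.262% ± 0.210 and 0.358% ± 0.103 in naïve ESCs. Phf1 did not pass the test in either line (limma, differences of 0.037 and -0.00056, adjusted p = 0.903 and 0.999).

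**Figure D3:**
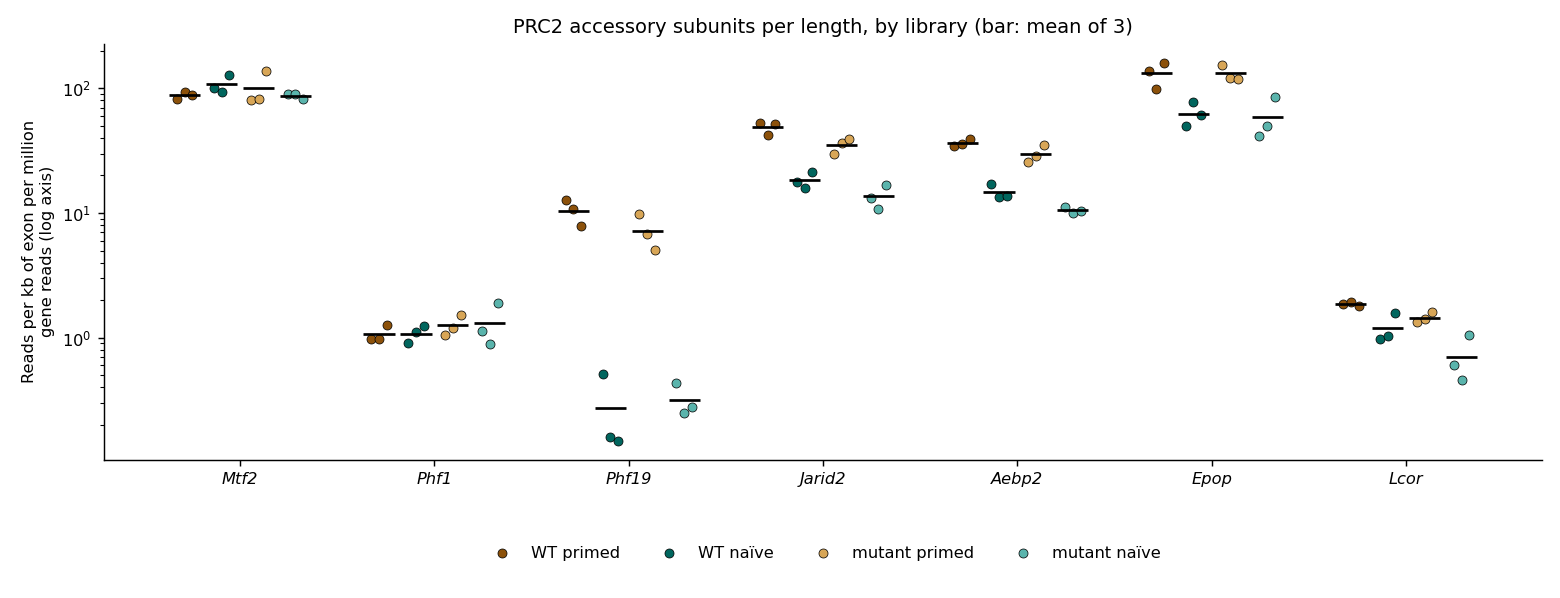
RPKM (vertical log axis) of PRC2 accessory subunits in all 12 libraries, coloured by rescue line and medium, with bars for the group means. Phf19 lies above Phf1 in primed and below it in naïve ESCs, Jarid2, Aebp2 and Epop are lower in naïve ESCs in both lines, and Mtf2 is at 80.9 RPKM or more in every library.

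Other PRC2 accessory genes were taken from a list of 7 (Phf1, Epop, Aebp2, Rbbp4, Rbbp7, Lcor and Ezhip). In both lines 3 of 7 fell in naïve ESCs (Aebp2, Epop and Ezhip) and none rose, against 12.4% and 13.7% of all genes. The list medians were -0.51 with WT and -0.74 with mutant TET2, against 0.011 and -0.0086 over all tested genes. Aebp2, the partner of Jarid2 in PRC2, fell by 1.25 with WT TET2 (limma, adjusted p = 8.08e-06) and fell by 1.47 with mutant TET2 (adjusted p = 1.66e-06). In RPKM it went from 36.7 ± 2.48 to 14.8 ± 2.14 and from 29.9 ± 4.66 to 10.6 ± 0.579 (SD, n = 3 each). Epop, which links PRC2 to elongin, had differences of -1.01 and -1.21 (adjusted p = 0.00396 and 0.00116). Ezhip, an inhibitor of PRC2 known from germ cells, had differences of -1.48 and -0.74 (adjusted p = 2.36e-04 and 0.0278). Lcor fell by 0.87 with mutant TET2 (adjusted p = 0.00571) and was at -0.51 with WT TET2 (adjusted p = 0.0793), and the histone-binding subunits Rbbp4 and Rbbp7 differed by 0.13 or less in either direction.

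Among the PRC1 subunits, Rnf2 (RING1B), the main E3 ligase of the complex in ESCs (chr1:153316536-153347953, minus strand), was at 10.40, 10.78 and 10.45 in primed and 11.18, 11.00 and 11.49 in naïve ESCs with WT TET2. In the mutant line it was at 10.46, 10.50 and 11.17 in primed and 11.15, 11.07 and 10.58 in naïve ESCs. The media did not overlap with WT TET2 and overlapped with mutant TET2, where replicate 3 was the highest primed and the lowest naïve library. Rnf2 was higher in naïve ESCs by 0.68 with WT TET2 (SE 0.21, limma, adjusted p = 0.0187). The call was lost without the WT naïve replicate 3 (limma, adjusted p = 0.0764), the WT primed replicate 1 (0.0788) or the WT primed replicate 3 (0.0678). With mutant TET2 the difference was 0.22 (95% interval -0.22 to 0.67, adjusted p = 0.433), and the interaction of 0.46 (95% interval -0.17 to 1.08, adjusted p = 0.976) does not show that the lines differ. Without the mutant primed replicate 3 the mutant media did not overlap, the difference was 0.46 (95% interval 0.041 to 0.87, adjusted p = 0.0798) and the interaction was 0.23 (95% interval -0.33 to 0.78).

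Ring1 (RING1A), the paralog of Rnf2 (chr17:34157737-34161625, minus strand), was at 7.23, 7.10 and 7.40 in primed and 7.43, 7.17 and 6.66 in naïve ESCs with WT TET2. With mutant TET2 it was at 7.81, 7.40 and 6.88 in primed and 7.48, 7.31 and 7.20 in naïve ESCs. The media overlapped in both lines. Its differences of -0.16 (95% interval -0.66 to 0.35, limma, adjusted p = 0.637) and -0.033 (95% interval -0.54 to 0.47, adjusted p = 0.930) were not called, and the second was -0.28 without the mutant primed replicate 3 (adjusted p = 0.368). With 73 to 268 reads per library, Ring1 was among the less precise of the 10 values.

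Bmi1 (PCGF4), a subunit of canonical PRC1 (chr2:18598645-18608256, plus strand), was at 8.09, 7.98 and 8.05 in primed and 8.10, 8.43 and 8.77 in naïve ESCs with WT TET2. The mutant line had values of 7.53, 7.74 and 8.66 in primed and 7.87, 8.06 and 7.97 in naïve ESCs. The WT media nearly touched, at 8.09 and 8.10, and the mutant primed libraries enclosed the naïve ones. The differences were 0.39 (95% interval -0.12 to 0.91, limma, adjusted p = 0.223) and -0.011 (95% interval -0.53 to 0.50, adjusted p = 0.977). Without the mutant primed replicate 3 the second was 0.33 (adjusted p = 0.205), with no overlap.

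Counted without a test, 8 of 10 subunits had media that did not overlap with WT TET2, where 50.0% of all tested genes did, and 4 of 10 with mutant TET2 (Ezh1, Eed, Jarid2 and Phf19), where 43.5% did. Without the mutant primed replicate 3 the latter was 8 of 10, Ezh2, Suz12, Rnf2 and Bmi1 being added, where 59.4% of all genes did. The response to medium was not shown to differ between the lines for any subunit, with 0 of 10 interactions called by limma, 0.00% over all genes, and 489 genes but 0 subunits at an unadjusted p under 0.05.

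Paralogs that take the same place in a complex were compared as the difference of their log2 values in each library, in which gene length cancels between media. The difference within a library is not corrected for length, and the scale compresses low counts. Ezh2 lay above Ezh1 by 2.25 ± 0.13 in naïve and 2.31 ± 0.18 in primed ESCs with WT TET2 and by 2.57 ± 0.23 and 2.67 ± 0.28 in the mutant line (SD, n = 3 each). Between media this changed by -0.081 (exact permutation test within lines, two-sided, p = 0.505, 0.505 after adjustment over 3 ratios). Per length, Ezh1 made up 14.6% ± 1.17 of the RPKM of the pair in naïve and 14.0% ± 1.47 in primed ESCs with WT TET2, and 11.9% ± 1.76 and 11.2% ± 2.03 with mutant TET2.

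Rnf2 exceeded Ring1 by 3.17, 3.67 and 3.05 in primed and 3.75, 3.84 and 4.83 in naïve ESCs with WT TET2, and by 2.65, 3.10 and 4.29 in primed and 3.67, 3.77 and 3.38 in naïve ESCs with mutant TET2. The highest values were those of the WT naïve replicate 3 and the mutant primed replicate 3. The difference between media was 0.55 (exact permutation test, p = 0.115, adjusted p = 0.173), and it was 0.78 without the mutant primed replicate 3 (p = 0.005, the smallest these permutations can give, adjusted p = 0.0075). In RPKM Ring1 made up 4.37% ± 1.72 and 6.12% ± 0.755 of the pair in naïve and 7.49% ± 1.64 and 7.97% ± 4.11 in primed ESCs, with WT and mutant TET2 (SD, n = 3 each).

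Bmi1 lay below its paralog Pcgf2 (MEL18), which fell by 0.49 in naïve ESCs with WT TET2 (limma, adjusted p = 0.0353) and was at -0.14 with mutant TET2 (adjusted p = 0.558). The log2 ratio was -1.54, -1.52 and -1.68 in primed and -0.78, -0.91 and -0.40 in naïve ESCs with WT TET2. With mutant TET2 it was -1.88, -1.60 and -0.38 in primed and -1.28, -0.82 and -1.37 in naïve ESCs. Naïve libraries lay above primed ones except for the mutant primed replicate 3, which was the highest of all. The difference of 0.51 (exact permutation test, p = 0.105, adjusted p = 0.173) became 0.73 without that library (p = 0.005, adjusted p = 0.0075). Both ratios thus turn on that library.

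**Figure D4:**
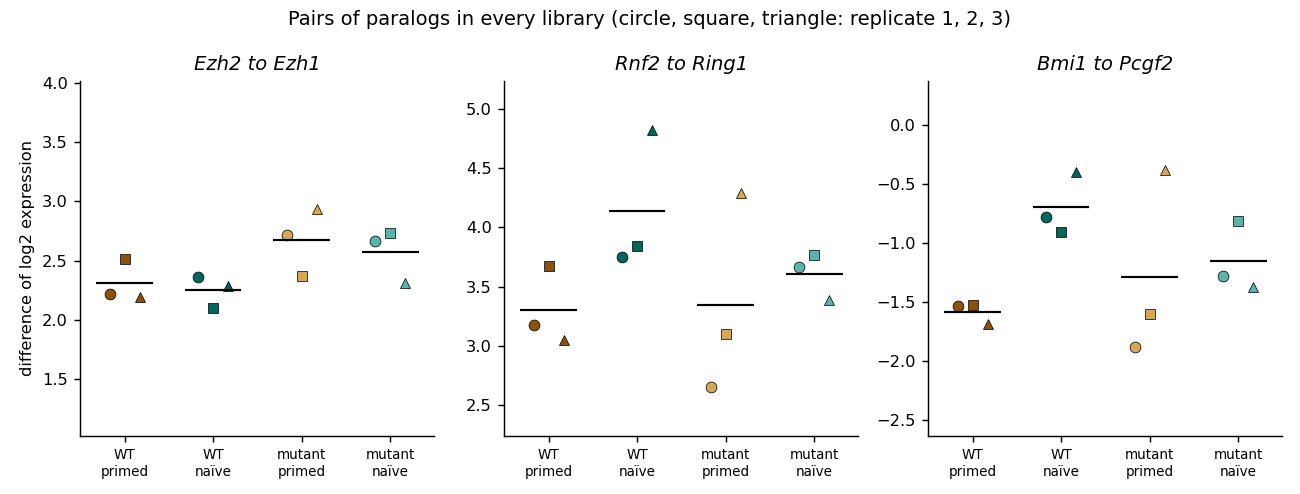
Difference of log2 expression within 3 pairs of paralogs (vertical axis, 3 log2 units in each panel) in every library, by rescue line and medium, with lines for the group means. For Rnf2 to Ring1 and Bmi1 to Pcgf2 the mutant primed replicate 3 (triangle) lies at 4.29 and -0.38, above the other 2 mutant primed libraries.

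Per length, Suz12 was highest in 3 groups, with 185 ± 37.9 and 125 ± 22.1 RPKM in naïve ESCs (WT and mutant TET2) and 148 ± 3.64 in WT primed ESCs. In mutant primed ESCs Eed (127 ± 14.5) and Suz12 (124 ± 47.8) overlapped. Mtf2 and Eed followed, and their libraries overlapped in both naïve groups. Rnf2 and Ezh2 came next, at 41.8 to 65.3 and 39.2 to 47.5 RPKM as group means. Ezh1 (5.14 to 8.05), Bmi1 (4.71 to 6.75) and Ring1 (2.90 to 3.66) stood at the low end. Jarid2 ranked 4th in WT primed ESCs, at 49.1 ± 6.23 RPKM, where its libraries overlapped those of Rnf2, and 6th in the other groups, and Phf19 ranked 7th in both primed groups and 10th in both naïve groups.

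The rescue lines differ in the catalytic activity of TET2, and each is a separate stable line. Their Tet2 transcripts also differed (mean log2 13.27 with WT against 11.12 with mutant TET2 in naïve and 14.83 against 12.99 in primed ESCs). The study reported similar TET2 protein in both. Catalytic activity, transcript level and line cannot be told apart here. Between these lines no subunit was called in either medium. That was 0 of 10 in naïve ESCs, where 0.0987% of all tested genes were called by limma, and 0 of 10 in primed ESCs, where 0.254% were. With the replicate number as a block, which pairs the naïve libraries, 36 genes in place of 14 were called in naïve ESCs, again with 0 subunits. At an unadjusted p under 0.05 there were 3 subunits in naïve ESCs (Ezh1, Suz12 and Jarid2, of 1882 genes) and 1 in primed ESCs (Jarid2, of 2295 genes), and limma-voom on recovered counts also called none. The intervals below are from the fit without the replicate block and do not use the pairing of the naïve libraries. Over 21 settings, the block among them, limma gave adjusted p in naïve ESCs of 0.139 to 0.734 for Jarid2. It gave 0.123 to 0.705 for Suz12 and 0.211 to 0.712 for Ezh1. Jarid2 was higher with WT TET2 by 0.45 in naïve ESCs (95% interval 0.079 to 0.83, adjusted p = 0.314) and by 0.44 in primed ESCs (95% interval 0.070 to 0.82, adjusted p = 0.254), and 3 of 3 WT primed libraries lay above all mutant ones. Suz12 was at 0.58 (95% interval 0.11 to 1.05, adjusted p = 0.310) and 0.28 (95% interval -0.19 to 0.75, adjusted p = 0.549), and Ezh1 at 0.35 (95% interval 0.048 to 0.65, adjusted p = 0.320) and 0.25 (95% interval -0.046 to 0.55, adjusted p = 0.386). Ezh1, Mtf2 and Bmi1 had no overlap between the lines in naïve ESCs, all higher with WT TET2 (3 of 10 against 8.78% of all genes that were higher without overlap), and Jarid2 had none in primed ESCs (1 of 10 against 11.5%). The remaining differences were between -0.28 and 0.49 in these contrasts. Their 95% intervals reached from -0.74 to 1.07 over these subunits. Without the mutant primed replicate 3 the primed difference was 0.56 for Suz12 (adjusted p = 0.131), 0.26 for Phf19 (0.634), 0.40 for Bmi1 (0.260), -0.36 for Ring1 (0.393), 0.058 for Mtf2 (0.881), 0.066 for Rnf2 (0.884) and -0.0095 for Ezh2 (0.980).

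Among 27 other PRC1 subunits, 4 rose and 9 fell in naïve ESCs with WT TET2 and 5 rose and 7 fell with mutant TET2, against 18.6% and 17.3% and 18.3% and 16.9% of all genes. In both lines 3 rose (Scml2, Yaf2 and Auts2) and 6 fell (Phc1, Scmh1, L3mbtl2, Cbx7, Rybp and Phc2), against 13.7% and 12.4% of all genes. The list medians were -0.20 and -0.12. Phc1, a polyhomeotic subunit that polymerises through its SAM domain, fell by 1.68 with WT TET2 (limma, adjusted p = 2.30e-06), fell by 1.51 with mutant TET2 (adjusted p = 7.42e-06) and had 3100 reads or more in every library. The differences of Scmh1 were -1.37 and -1.02 (adjusted p = 2.17e-05 and 3.58e-04), and those of L3mbtl2, of the PCGF6 complex, -0.93 and -0.95 (adjusted p = 6.96e-04 and 6.51e-04). Scml2 was higher by 0.91 and 0.90 (adjusted p = 0.0350 and 0.0380).

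Of 6 enzymes that remove the Polycomb marks and their cofactors, 3 fell in naïve ESCs in both lines and none rose in both, against 12.4% and 13.7% of all genes. The differences of Kdm6a (UTX), a demethylase of lysine 27, were -0.61 and -1.02 (limma, adjusted p = 0.0321 and 0.00153). Those of Asxl3, a cofactor of Bap1, were -0.73 and -0.79 (adjusted p = 0.0109 and 0.00678). Those of Bap1, which removes ubiquitin from histone H2A, were -0.49 and -0.52 (adjusted p = 0.0183 and 0.0137). Kdm6b, the other demethylase of the list, went the other way without a call (0.22 and 0.69, adjusted p = 0.560 and 0.0636). Without the mutant primed replicate 3, 1 gene of the list was called higher with mutant TET2. Of 12 subunits of COMPASS complexes, which methylate lysine 4, 1 rose and 2 fell in both lines, against 13.7% and 12.4% of all genes. Without the mutant primed replicate 3, 3 fell in both. Wdr5 rose (0.82 and 0.74, limma, adjusted p = 0.00291 and 0.00626), and Setd1b (-1.60 and -1.09, adjusted p = 5.19e-05 and 0.00151) and Cxxc1 (-0.68 and -0.73, adjusted p = 0.0141 and 0.0102) fell. The medians of these lists were -0.50 and -0.53 for the enzymes and cofactors and -0.53 and -0.27 for COMPASS.

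Developmental regulators that Polycomb is known to mark were mostly near the floor. Of 30 listed genes 29 were in the table and 16 passed the filter. Gata3, Bmp4 and Msx2 passed only through the primed libraries, while Msx1, for example, passed only through the naïve ones. The counts and medians of this list are thus no support for a direction. With WT TET2 1 of 16 was higher and 9 were lower in naïve ESCs, and with mutant TET2 1 was higher and 7 were lower. In both lines 1 was higher and 7 were lower, against 13.7% and 12.4% of all genes. Without the mutant primed replicate 3 none was higher in both. Gata3, a factor of trophoblast and other lineages, had 0 reads in all 6 naïve libraries against 74 to 267 and 50 to 76 in primed ESCs, at least 125-fold and 92.5-fold lower against a floor of 3 reads over the group. The list medians were -0.58 and -0.31 with Gata3 at the fitted value or at this bound. Bmp4, a signalling ligand, was read 0 to 12 times in naïve and 100 to 381 times in primed libraries (fitted differences of -3.31 and -2.84). Neurog1 (-1.84 and -1.99, limma, adjusted p = 4.22e-05 and 2.10e-05) and Eomes (-1.62 and -1.39, adjusted p = 4.52e-06 and 2.08e-05) were lower too. Msx1, with 2 to 38 reads, was the 1 gene higher in both lines (fitted differences of 1.16 and 0.74). Eomes, Cdx2 and Hand1 of this list are also among the trophoblast markers given above.

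Of 12 genes of S phase, 1 rose and 3 fell with WT TET2 and none rose and 3 fell with mutant TET2. In both lines 3 fell and none rose, against 12.4% and 13.7% of all genes (Ccne1, with differences of -1.06 and -1.37, limma, adjusted p = 1.35e-04 and 1.27e-05, Mcm5, with -0.42 and -0.63, adjusted p = 0.0307 and 0.00300, and Cdc6, with -0.44 and -0.45, adjusted p = 0.0395 and 0.0369), and 2 fell without the mutant primed replicate 3. The list medians were 0.034 and -0.043. No gene of the Polycomb, COMPASS or S phase lists was called between the rescue lines. Of the two-cell-like markers, Zscan4d differed by -1.99 between WT and mutant TET2 in primed ESCs (limma, adjusted p = 0.0336). It had 10 to 47 reads with WT and 54 to 339 with mutant TET2 there, with an SD of 1.12 in the latter. The summed level of the 4 markers was 3.06 to 6.75 RPM with WT TET2 and 11.0 to 60.1 with mutant TET2 in primed ESCs, and 5.99 to 8.23 and 11.0 to 20.4 in naïve ESCs. Their median difference between the lines in primed ESCs was -1.60, and -1.13 without the mutant primed replicate 3.

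**Figure D5:**
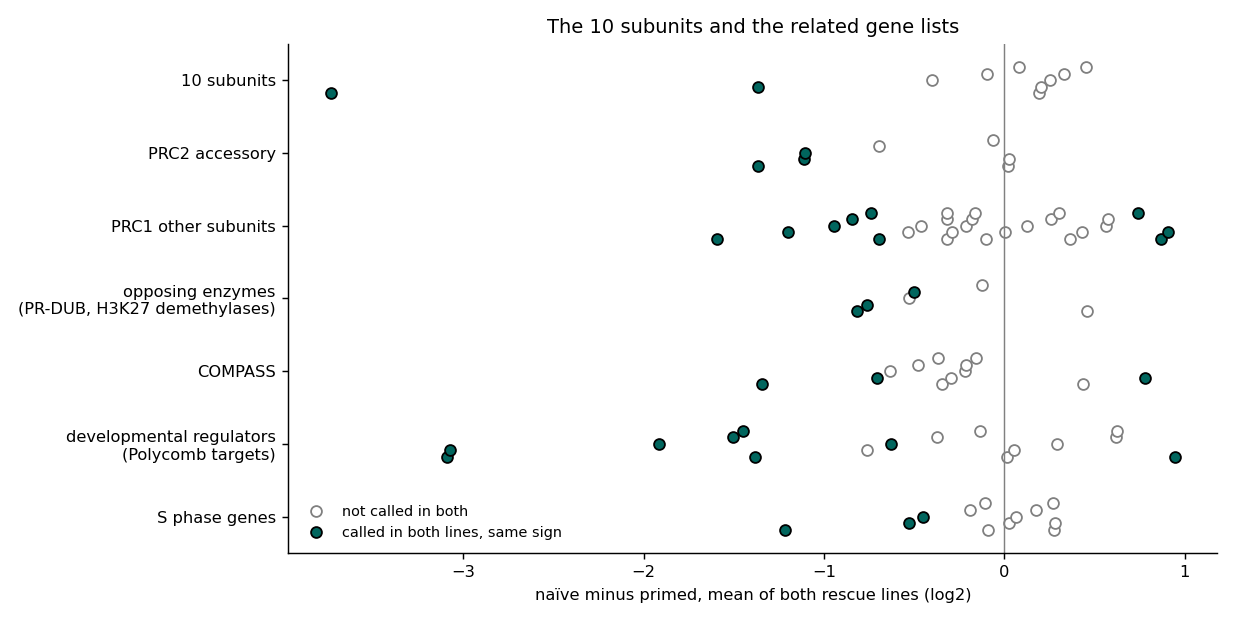
Naïve minus primed log2 differences (horizontal axis, mean of both rescue lines) of every tested gene in the 10 subunits and 6 related lists, with filled points for genes called in both lines with the same sign. Phf19 lies at -3.74, and Gata3 and Bmp4 among the developmental regulators lie at -3.09 and -3.07. These are fitted values on a scale that compresses low counts, and Gata3 had 0 reads in the naïve libraries, so the order of these points is not that of the folds in reads. Gata3 and Bmp4 passed the filter only through the primed libraries.

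The genes whose centred profile over the 12 libraries lay nearest to that of Phf19 were Rbm47 (root mean square difference 0.34 log2 units), an RNA-binding protein gene, AU015836 (0.36) and Etv4 (0.39), an ETS transcription factor gene. Rbm47 was at 5.79 and 6.09 in naïve and 9.79 and 8.92 in primed ESCs (WT and mutant TET2), Etv4 at 4.26 and 4.41 against 8.25 and 8.32 and AU015836 at 4.05 and 3.91 against 8.47 and 7.94. All of them shared the low naïve counts of Phf19, with at most 4 reads in any naïve library for Etv4 and AU015836 and at most 80 for Rbm47. The 12 points of each profile share 4 groups, and no test of likeness was made.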

How the data were processed

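Poly(A)-selected RNA of 12 libraries was sequenced (single-end). Per the labels and the study's methods, the authors trimmed reads with Trim Galore 0.3.3 and aligned them to mm9 with TopHat2 2.0.9, placing a read with several equal positions at random. The counter and its annotation are not given in the sources used here. The deposited gene values are log2 values after the variance-stabilising transformation, which the authors made with DESeq2. Inverting it returned whole reads (tolerance 0.01), which gave depth, RPKM and a limma-voom test. RPKM used exon lengths of an mm9 annotation.

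Genes with a mean at least 1 above the lowest value were tested with limma 3.58.1 (R 4.3.3), with an intensity trend, 4 groups and all 12 libraries in 1 fit, and Benjamini-Hochberg adjustment over 14185 genes, calling at 0.05. In simulated data (WT TET2, naïve against primed, 14350 genes) 85.6% of 2-fold and 99.0% of 4-fold changes were recovered. The spread of these data was set and not fitted to the libraries. Ratios were tested by exact permutation. Subunits and gene lists were chosen with earlier results of these data known. Of each list other than the cell-type markers, up to 4 genes with the largest differences among those called in both lines were named. All genes called between rescue lines were named too. The other genes of a count of 6 or fewer were named after their values were seen, as were Msx2 and Kdm6b. Alternatives were other filters, no trend, centring, quantile normalization, a replicate block, recovered counts, a stricter threshold, fewer libraries in the fit and each library left out. Counts without the mutant primed replicate 3 were added after seeing the data. Same-numbered naïve libraries of the rescue lines deviated together (correlations 0.59, 0.30 and 0.39) and count as paired. In primed ESCs and between media not every pair exceeded 0.1. Repeat-element values were not used here. Python 3.11.15, pandas 2.3.3 and matplotlib 3.10.9 were used.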

Additional observations from a re-analysis of the deposited data

How the results depend on the processing

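Phf19 and Jarid2 were called in both rescue lines in 21 of 21 settings each, with adjusted p between 3.22e-09 and 1.24e-06 and between 2.77e-08 and 4.30e-06 for Phf19, and between 1.31e-05 and 3.19e-04 and between 1.59e-05 and 2.74e-04 for Jarid2 (WT and mutant TET2). The number of subunits called between media with WT TET2 was 2 at an adjusted p of 0.01 and lay between 2 and 4 when each library was left out. With mutant TET2 it was 2 at an adjusted p of 0.01, by the loss of Eed, and stayed at 3 when each library was left out. For the other comparisons it stayed at 0 when each library was left out. The replicate block changed the subunits called only by the loss of Ezh1 with WT TET2 (3 called in place of 4), and no call between the lines (0 in naïve, where the pairing holds, and 0 in primed), although genes called rose from 14 to 36 in naïve and from 36 to 209 in primed ESCs. The cause was not tested. With each library left out, the Rnf2 to Ring1 difference lay between 0.37 and 0.78 and the Bmi1 to Pcgf2 difference between 0.36 and 0.73, with both highest values past the threshold. Of 990 alternative values for single subunits, 945 kept direction and side of the threshold, 16 lost the call and 29 changed sign, all of them not called. The largest changed value was 0.33, for Bmi1 between media with mutant TET2 without the mutant primed replicate 3, from -0.011 in the main fit. Under quantile normalization the differences between the lines in naïve ESCs were -0.0129 for Ezh2 and -0.0771 for Eed, and the Jarid2 interaction was -0.18. With libraries centred on the median the Eed difference was -0.00691. With each library left out, naïve minus primed ranged from -0.33 to 0.055 for Ring1 with WT TET2, and with mutant TET2 from -0.13 to 0.34 for Suz12, -0.30 to 0.077 for Mtf2, -0.28 to 0.19 for Ring1 and -0.23 to 0.33 for Bmi1. Between the lines, differences ranged in naïve ESCs from -0.065 to 0.10 for Ezh2 and -0.094 to 0.086 for Eed, and in primed ESCs from -0.32 to 0.058 for Mtf2, -0.29 to 0.066 for Rnf2, -0.36 to 0.11 for Ring1 and -0.16 to 0.40 for Bmi1. Subunits whose media did not overlap with mutant TET2 went from 4 to 8 without the mutant primed replicate 3. The interaction ranged from -0.13 to 0.15 for Jarid2 and -0.35 to 0.12 for Ring1. With 3 libraries per group, 2-fold changes were recovered less often than 4-fold ones in simulated data (85.6% against 99.0%). The simulation set its own spread and covered only the media with WT TET2, so its shares do not apply between the rescue lines. There Scml2, for example, differed by 1.04 in naïve ESCs without a call (limma, adjusted p = 0.262). Reads are not independent molecules, and the 9 to 31 naïve reads of Phf19 limit the precision of its fold change.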
